A study of Arabidopsis thaliana with 14 samples.

Results

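The genes described here are 10 Arabidopsis thaliana genes of membrane lipid remodelling, the exchange of phospholipids for lipids without phosphorus when inorganic phosphate (Pi) is scarce. They were set by gene identifier and not by a cut on measured values, but with earlier results of these data known. All 10 had a row among the 33602 genes counted. RNA of roots was sequenced in 14 samples of 6 groups, in 2 experiments. Plants in pots, 3 weeks old, were pho1-7tex1-4, pho1-7hpr1-5, pho1-7 and wild-type Col-0, with 2 samples each and single-end reads. Plants on agar plates, 10 days old by the labels, were tex1-4 and Col-0, with 3 samples each and paired-end reads. Every line is in the Col-0 ecotype. No group was grown without a supply of Pi, since the pots were fertilized weekly and the plates held MS salts. The comparisons within an experiment are therefore between genotypes and not between Pi supplies. Pi status inside the plant can still differ along with genotype. The pho1-7 mutant carries a T-DNA in PHO1, the exporter that loads Pi into the root xylem, and lacks the second exon of that gene. The study describes this mutant as severely deficient in Pi, which it measured as low Pi content of the shoot, with reduced shoot growth. TEX1 and HPR1 are subunits of the THO complex, which couples transcription to messenger RNA processing and export. The study's methods call the HPR1 allele hpr1-6, and the spelling of the labels is used here. The labels call the samples biological replicates without saying whether a sample pooled several plants.

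In plants, Pi shortage leads to degradation of phospholipids, which frees their phosphate, and to synthesis of galactolipids and sulfolipids that take their place in membranes. The first step removes the head group, by phospholipase C directly or by phospholipase D and a phosphatase, and the diacylglycerol that results is the substrate for the new lipids. Many genes of the pathway are known targets of PHR1, a transcription factor of the Pi starvation response.

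Galactolipid synthesis was represented by 4 genes. MGD2 (AT5G20410, chr5:6896463-6898783, plus strand) and MGD3 (AT2G11810, chr2:4743162-4746813, plus strand) encode the type B synthases of monogalactosyldiacylglycerol, which act in the outer plastid envelope. DGD1 (AT3G11670, chr3:3680866-3684871, minus strand) and DGD2 (AT4G00550, chr4:237901-240579, minus strand) encode the synthases that add a further galactose. Sulfolipid synthesis was represented by SQD1 (AT4G33030, chr4:15935373-15937833, plus strand), which makes the sulfoquinovose donor, and SQD2 (AT5G01220, chr5:86543-90117, minus strand), which transfers it to diacylglycerol. Phospholipid breakdown was represented by PLDZ2 (AT3G05630, chr3:1635194-1640357, plus strand), a phospholipase D, by NPC4 (AT3G03530, chr3:842499-845096, minus strand) and NPC5 (AT3G03540, chr3:846221-848297, minus strand), neighbouring genes for non-specific phospholipases C, and by GDPD1 (AT3G02040, chr3:348167-350010, minus strand), a phosphodiesterase of deacylated phospholipids. Positions are those of the RefSeq annotation of TAIR10.1.

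PHR1 binds a palindrome called P1BS, GNATATNC, which reads the same on both strands. Windows of 500 bases before to 50 bases after each gene start were searched for it in the TAIR10.1 genome. The motif stood in the windows of 7 of the 10 genes, against 11.4% of 26712 windows of protein-coding genes. It was also found for 8 of 20 further genes of lipid remodelling and 2 of 5 phosphate status genes, both described below. A match is thus not particular to the 10 genes. GDPD1 had 4 matches, MGD2 had 2, and DGD1, SQD1, SQD2, PLDZ2 and NPC4 had 1 each. These letters were not found in the windows of MGD3, DGD2 and NPC5. The match nearest the gene start is printed for each of the 7 genes, to show which of the genes carry the motif that this regulator is known to bind. Each is given 5′ to 3′ on the strand of the gene, with the motif in capitals. Positions count from the first base of the motif, and a negative position lies before the gene start.
MGD2, position -14, chr5:6896439-6896466, plus strand: atatactactGAATATTCttttgttaat
DGD1, position 40, chr3:3684814-3684841, minus strand: ttcgattccaGCATATTCctaagttaaa
SQD1, position 14, chr4:15935377-15935404, plus strand: gaataagtaaGAATATGCtttgggcata
SQD2, position -340, chr5:90440-90467, minus strand: tatgtgaagcGAATATTCattggaatag
PLDZ2, position -180, chr3:1635004-1635031, plus strand: taaccaagttGCATATACacggcagggt
NPC4, position -219, chr3:845298-845325, minus strand: ttgaaaaagtGAATATTCttgacacaga
GDPD1, position -63, chr3:350056-350083, minus strand: gcgatccaaaGAATATTCcaagatccca

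Between 56068761 and 110039106 reads were assigned to genes per sample, and 8367 to 20810 of them to the 10 genes. The mutated genes followed the labels. TEX1 stood at 1.03 and 0.708 counts per 1000000 reads (CPM) in pho1-7tex1-4, against 13.7 and 13.1 CPM in Col-0 of the pots, and at 2.53, 2.58 and 2.17 CPM in tex1-4, against 14.8, 14.6 and 14.7 CPM in Col-0 of the plates. HPR1 stood at 11.7 and 12.3 CPM in pho1-7hpr1-5, against 35.0 and 34.7 CPM in Col-0. PHO1 stood at 379 and 426 CPM in pho1-7tex1-4, at 312 and 275 CPM in pho1-7hpr1-5 and at 200 and 188 CPM in pho1-7, against 1028 and 975 CPM in Col-0. All 9 root markers were found in every sample. The summed level of 10 shoot markers was 10.2 and 150.4 CPM in pho1-7tex1-4, 92.5 and 234 CPM in pho1-7hpr1-5 and 169 to 195 CPM in pho1-7, against 106 to 188 CPM in Col-0. On plates it was 71.6 to 80.5 CPM in tex1-4, against 131 to 153 CPM in Col-0. RBCS1B and RBCS2B were at 0 in some samples of both experiments and LHCB1.4 was at 0 in pho1-7tex1-4 of the pots. The part of the shoot markers in the results was not tested. In whole roots, a change in the share of a cell type and a change of RNA per cell cannot be told apart.

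Of the 10 genes, 9 had enough reads to be tested, and none of them had fewer than 90 reads in any sample. NPC5 had 0 to 2 reads in each of the 14 samples, which is under 3 reads, or 0.0273 to 0.0535 CPM, and no difference could be seen at this depth. To set the genes beside each other, levels were also scaled to exon length, as CPM per 1000 bases of exon (RPKM). GDPD1 was first in all 4 groups of the pots, at 21.4 ± 0.880 RPKM in pho1-7tex1-4, 32.5 ± 0.106 RPKM in pho1-7hpr1-5 and 37.1 ± 4.95 RPKM in pho1-7, against 21.8 ± 0.656 RPKM in Col-0 (SD, n = 2 each). On plates SQD2 was first, at 22.4 ± 1.05 RPKM in tex1-4 and 23.3 ± 1.26 RPKM in Col-0 (SD, n = 3 each). In Col-0 of the pots SQD2 (13.8 ± 0.991 RPKM), DGD2 (12.0 ± 0.676 RPKM) and SQD1 (11.6 ± 0.0676 RPKM) followed GDPD1, and the last 2 of these lay within their spread. DGD1 (5.86 ± 0.138 RPKM) and NPC4 (5.77 ± 0.309 RPKM) came next and did not differ beyond their spread. MGD2 (2.73 ± 0.121 RPKM), PLDZ2 (1.24 ± 0.109 RPKM) and MGD3 (1.19 ± 0.222 RPKM) were lowest of the tested genes, the last 2 within their spread. In pho1-7 the order changed most for MGD3, which stood at 4.67 ± 1.82 RPKM beside NPC4 at 4.53 ± 0.683 RPKM and MGD2 at 4.39 ± 0.896 RPKM, a difference within the spread.

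**Figure D1:**
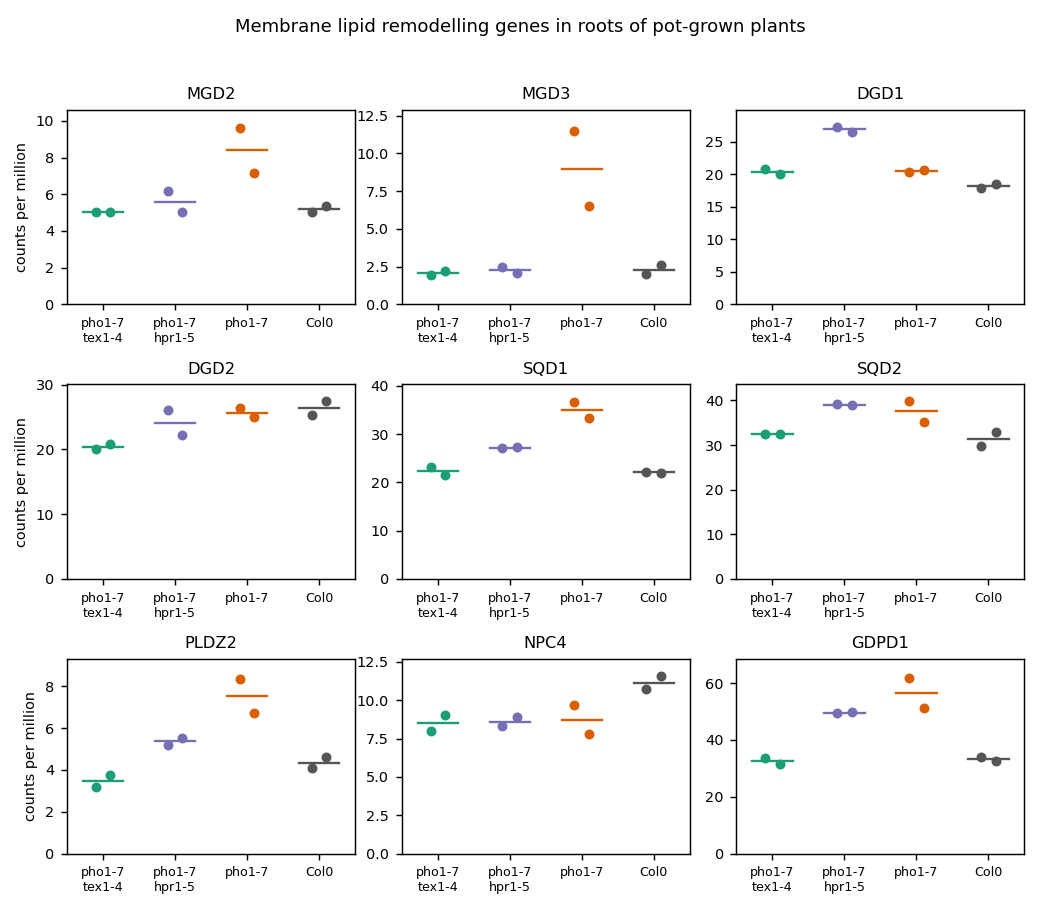
Levels of the 9 tested genes in roots of pot-grown plants, in CPM on linear axes from 0, for pho1-7tex1-4, pho1-7hpr1-5, pho1-7 and Col-0 from left to right. Points are the 2 samples of a group and bars are their means. MGD3 lies between 6.52 and 11.5 in pho1-7 and between 1.95 and 2.59 in the other 3 groups.

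The first comparison in pots asked which of the genes differed in the root of pho1-7, a mutant whose shoot receives little Pi. MGD2 and MGD3, SQD1, PLDZ2 and GDPD1 were higher in pho1-7 than in Col-0, so that each branch of the pathway had at least 1 gene that rose. A gene was called when its adjusted p was under 0.05 (edgeR quasi-likelihood fit, adjusted by Benjamini-Hochberg over all 21972 genes). By this rule 5 of the 9 tested genes rose and none fell, while 2.40% of all tested genes rose, 4.71% fell and 7.11% did either. The median log2 change of the 9 genes was 0.66, against 0.01 for all tested genes.

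MGD3 showed the widest difference. It had 11.5 and 6.52 CPM in pho1-7, against 1.99 and 2.59 CPM in Col-0. The 2 groups did not overlap, but the pho1-7 samples stood far apart from each other. The change was 3.93-fold (log2 change 1.97, SE 0.271, adjusted p = 0.00678), and it missed the threshold without Col-0 replicate 1 (adjusted p = 0.0608). Its relative MGD2 had 9.60 and 7.17 CPM in pho1-7, against 5.04 and 5.37 CPM in Col-0, again without overlap. MGD2 was 1.61-fold higher (log2 change 0.69, SE 0.158, adjusted p = 0.0416). This call lay close to the threshold and was lost without Col-0 replicate 1 (adjusted p = 0.183), Col-0 replicate 2 (0.171) or pho1-7 replicate 1 (0.106), and also when the other groups were left out of the fit (0.0521).

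The synthases of digalactosyl lipids did not pass the test. DGD1 had 20.3 and 20.6 CPM in pho1-7, against 17.9 and 18.5 CPM in Col-0, a log2 change of 0.17 (95% interval 0.03 to 0.31, adjusted p = 0.126). DGD2 had 26.5 and 24.9 CPM in pho1-7, against 25.4 and 27.5 CPM in Col-0, and its log2 change lay between -0.24 and 0.16 (95% interval). A change of DGD2 as wide as that of MGD3 lay outside this interval.

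Both sulfolipid genes were higher, and 1 of them passed. SQD1 had 36.6 and 33.4 CPM in pho1-7, against 22.2 and 22.0 CPM in Col-0. Its rise of 1.58-fold (log2 change 0.66, SE 0.0678, adjusted p = 0.00265) was small but tight, and it passed the threshold without any 1 of the 4 samples. SQD2 had 39.9 and 35.2 CPM in pho1-7, against 29.8 and 33.0 CPM in Col-0. Its log2 change of 0.26 (95% interval 0.08 to 0.43) had an adjusted p of 0.0820, which was 0.0387 with no filter on low counts and 0.0490 when library totals alone set the scale.

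Among the genes of phospholipid breakdown, PLDZ2 had 8.34 and 6.70 CPM in pho1-7, against 4.08 and 4.62 CPM in Col-0. It was 1.73-fold higher (log2 change 0.79, SE 0.144, adjusted p = 0.0201), and the call was lost without Col-0 replicate 1 (adjusted p = 0.131), Col-0 replicate 2 (0.0799) or pho1-7 replicate 1 (0.0602). GDPD1, the most abundant of the 10 genes in pots, had 61.9 and 51.2 CPM in pho1-7, against 34.0 and 32.6 CPM in Col-0. It was 1.70-fold higher (log2 change 0.76, SE 0.0879, adjusted p = 0.00358), and passed without any 1 of the 4 samples. Exons of GDPD1 and of AT3G02030 on the opposite strand share 681 bases in TAIR10.1, and AT3G02030 had 7.42 and 8.76 CPM in pho1-7, against 7.25 and 6.34 CPM in Col-0 (log2 change 0.25, adjusted p = 0.219). PLDZ2 shares 8 exon bases with AT3G05640, whose log2 change was 0.01 (SE 0.0934). The library kit marks strand, but the strand setting of the counting is not given in the sources used here.

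NPC4 had 9.68 and 7.82 CPM in pho1-7, against 10.7 and 11.6 CPM in Col-0. Its log2 change of -0.35 (95% interval -0.63 to -0.07) did not pass (adjusted p = 0.121). Of the genes with a P1BS match, MGD2, SQD1, PLDZ2 and GDPD1 rose in pho1-7 and DGD1, SQD2 and NPC4 were not called. Of those without a match, MGD3 rose, DGD2 was not called and NPC5 was not tested. Calls with and without a match were not compared by a test.

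Mutation of TEX1 or HPR1 in the pho1-7 background was compared with pho1-7 itself. Both comparisons use the same pho1-7 samples as the first one, so a pho1-7 sample that lies high raises the first difference and lowers these ones. In pho1-7tex1-4, 6 of the 9 genes fell and none rose, against 16.8% of all tested genes that fell, 18.9% that rose and 35.7% that did either. The genes that fell were MGD2, MGD3, DGD2, SQD1, PLDZ2 and GDPD1. In pho1-7hpr1-5, 4 genes fell, MGD2, MGD3, SQD1 and PLDZ2, and DGD1 rose, where 15.3% of all tested genes fell, 16.5% rose and 31.7% changed. The median log2 change of the 9 genes was -0.65 in pho1-7tex1-4 and -0.19 in pho1-7hpr1-5, against 0.02 and 0.01 for all tested genes.

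MGD3 had 1.95 and 2.24 CPM in pho1-7tex1-4 and 2.46 and 2.04 CPM in pho1-7hpr1-5, against 11.5 and 6.52 CPM in pho1-7. It was 4.27-fold lower in pho1-7tex1-4 (log2 change -2.09, SE 0.272, adjusted p = 0.00161) and 3.98-fold lower in pho1-7hpr1-5 (log2 change -1.99, SE 0.272, adjusted p = 0.00156). Both calls held without any 1 sample of the groups compared. MGD2 had 5.01 and 5.03 CPM in pho1-7tex1-4 and 6.18 and 5.01 CPM in pho1-7hpr1-5, against 9.60 and 7.17 CPM in pho1-7. It was 1.67-fold lower in pho1-7tex1-4 (log2 change -0.74, SE 0.158, adjusted p = 0.00977), a call lost without pho1-7 replicate 1 (adjusted p = 0.0547), pho1-7tex1-4 replicate 1 (0.0505) or pho1-7tex1-4 replicate 2 (0.0519). It was lower in pho1-7hpr1-5 (log2 change -0.58, SE 0.158, adjusted p = 0.0257), and this call was lost without pho1-7 replicate 1 (adjusted p = 0.134) or pho1-7hpr1-5 replicate 2 (0.125), and with the compared groups alone (0.0576).

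The 2 THO mutants parted at DGD1. It had 20.8 and 20.1 CPM in pho1-7tex1-4 and 27.3 and 26.6 CPM in pho1-7hpr1-5, against 20.3 and 20.6 CPM in pho1-7. DGD1 rose 1.32-fold in pho1-7hpr1-5 (log2 change 0.40, SE 0.0594, adjusted p = 0.00232), while its log2 change in pho1-7tex1-4 lay between -0.14 and 0.13 (95% interval). DGD2 had 20.0 and 20.9 CPM in pho1-7tex1-4 and 26.0 and 22.2 CPM in pho1-7hpr1-5, against 26.5 and 24.9 CPM in pho1-7. It fell by 0.33 on the log2 scale in pho1-7tex1-4 (SE 0.0883, adjusted p = 0.0225), a call lost without pho1-7 replicate 1 (adjusted p = 0.109), pho1-7tex1-4 replicate 1 (0.109) or pho1-7tex1-4 replicate 2 (0.0690). In pho1-7hpr1-5 the log2 change of DGD2 was -0.09 (95% interval -0.30 to 0.11).

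SQD1 had 23.2 and 21.5 CPM in pho1-7tex1-4 and 27.1 and 27.3 CPM in pho1-7hpr1-5, against 36.6 and 33.4 CPM in pho1-7. The 3 groups did not overlap. SQD1 was 1.57-fold lower in pho1-7tex1-4 (log2 change -0.65, SE 0.0677, adjusted p = 0.000708) and 1.29-fold lower in pho1-7hpr1-5 (log2 change -0.36, SE 0.0674, adjusted p = 0.00575). Both calls held without any 1 sample. SQD2 had 32.5 CPM in each sample of pho1-7tex1-4 and 39.1 and 38.9 CPM in pho1-7hpr1-5, against 39.9 and 35.2 CPM in pho1-7. Neither comparison of SQD2 passed, with a log2 change of -0.21 in pho1-7tex1-4 (95% interval -0.38 to -0.03, adjusted p = 0.0643, or 0.0256 without pho1-7 replicate 2, 0.0419 with no filter and 0.0448 with library totals alone) and of 0.06 in pho1-7hpr1-5 (95% interval -0.12 to 0.23).

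PLDZ2 had 3.17 and 3.75 CPM in pho1-7tex1-4 and 5.20 and 5.55 CPM in pho1-7hpr1-5, against 8.34 and 6.70 CPM in pho1-7. It was 2.16-fold lower in pho1-7tex1-4 (log2 change -1.11, SE 0.146, adjusted p = 0.00170), without any 1 sample too. In pho1-7hpr1-5 it was lower (log2 change -0.48, SE 0.143, adjusted p = 0.0347), a call lost without pho1-7 replicate 1 (adjusted p = 0.179), pho1-7hpr1-5 replicate 1 (0.127) or pho1-7hpr1-5 replicate 2 (0.0817), and with the compared groups alone (0.0514). GDPD1 had 33.6 and 31.7 CPM in pho1-7tex1-4 and 49.4 and 49.7 CPM in pho1-7hpr1-5, against 61.9 and 51.2 CPM in pho1-7. It was 1.73-fold lower in pho1-7tex1-4 (log2 change -0.79, SE 0.0879, adjusted p = 0.000876). In pho1-7hpr1-5 its log2 change of -0.19 (95% interval -0.39 to 0.01) did not pass (adjusted p = 0.134, or 0.0155 without pho1-7 replicate 2). AT3G02030, which overlaps GDPD1, fell in pho1-7hpr1-5 (log2 change -0.75, SE 0.119, adjusted p = 0.00297), and AT3G05640, which overlaps PLDZ2, fell in pho1-7tex1-4 and rose in pho1-7hpr1-5, by -0.46 and 0.38 on the log2 scale (adjusted p = 0.00838 and 0.0166).

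NPC4 had 8.01 and 9.07 CPM in pho1-7tex1-4 and 8.32 and 8.90 CPM in pho1-7hpr1-5, against 9.68 and 7.82 CPM in pho1-7, and the groups overlapped. Its log2 change lay between -0.31 and 0.25 in pho1-7tex1-4 and between -0.30 and 0.26 in pho1-7hpr1-5 (95% intervals). MGD3 in either THO mutant, and PLDZ2 in pho1-7tex1-4, changed over 2-fold, and the other called changes in these 2 comparisons were smaller.

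**Figure D2:**
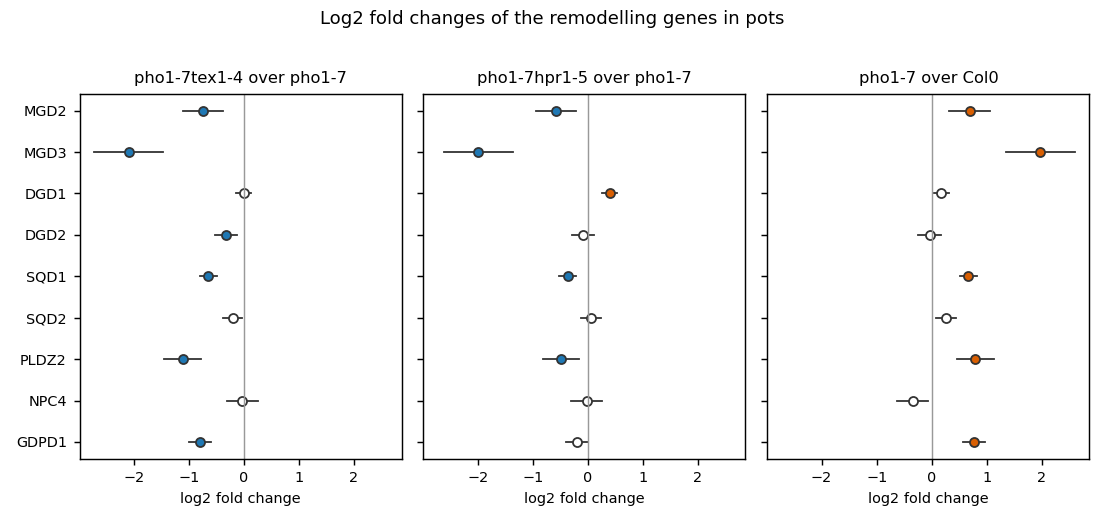
Log2 fold changes of the 9 tested genes in pots, for pho1-7tex1-4 over pho1-7, pho1-7hpr1-5 over pho1-7 and pho1-7 over Col-0. Circles are the estimates, bars their 95% intervals, filled circles the genes with an adjusted p under 0.05. MGD3 lies at -2.09, -1.99 and 1.97, and the 3 panels share the pho1-7 samples.

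The pho1-7 lines with a mutated TEX1 or HPR1 were also set against Col-0. In pho1-7tex1-4, 2 of the 9 genes fell, DGD2 and NPC4, and none rose, against 22.6% of all tested genes that fell, 23.6% that rose and 46.1% that did either. The share of the 9 genes called was below that of all genes. MGD3 had 1.95 and 2.24 CPM in pho1-7tex1-4, against 1.99 and 2.59 CPM in Col-0, with a 95% interval of the log2 change from -0.77 to 0.53. The interval of SQD1 ran from -0.14 to 0.17 and that of GDPD1 from -0.23 to 0.17, both narrower than their rises in pho1-7. DGD2 fell by 0.37 (log2 scale, SE 0.0881, adjusted p = 0.0113), a call lost without Col-0 replicate 2 (adjusted p = 0.0829) or pho1-7tex1-4 replicate 1 (0.0641). NPC4 fell by 0.38 (log2 scale, SE 0.119, adjusted p = 0.0322), and that call was lost without any 1 of the 4 samples (adjusted p between 0.0516 and 0.163).

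In pho1-7hpr1-5, 4 of the 9 genes stood above Col-0 and 1 below it, against 20.7% of all tested genes that rose, 21.1% that fell and 41.9% that changed. The genes that rose were DGD1, SQD1, SQD2 and GDPD1. DGD1 had 27.3 and 26.6 CPM in pho1-7hpr1-5, against 17.9 and 18.5 CPM in Col-0, a 1.48-fold rise (log2 change 0.57, SE 0.0595, adjusted p = 0.000344). GDPD1 had 49.4 and 49.7 CPM in pho1-7hpr1-5, against 34.0 and 32.6 CPM in Col-0, a 1.49-fold rise (log2 change 0.57, SE 0.0879, adjusted p = 0.00173). SQD1 rose by 0.30 on the log2 scale (SE 0.0680, adjusted p = 0.00982, or 0.0631 without Col-0 replicate 2) and SQD2 by 0.32 (SE 0.0757, adjusted p = 0.0123, or 0.0846 without Col-0 replicate 1). NPC4 fell by 0.37 (log2 scale, SE 0.120, adjusted p = 0.0386), a call lost without any 1 of the 4 samples (adjusted p between 0.0813 and 0.184). MGD3 had 2.46 and 2.04 CPM in pho1-7hpr1-5, against 1.99 and 2.59 CPM in Col-0, with a 95% interval of the log2 change from -0.68 to 0.63.

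The 2 THO mutants in the pho1-7 background were compared directly. In pho1-7hpr1-5, 5 of the 9 genes stood above pho1-7tex1-4 and none below, where 13.4% of all tested genes were higher, 12.6% lower and 26.0% differed. The genes were DGD1, SQD1, SQD2, PLDZ2 and GDPD1. GDPD1 had 49.4 and 49.7 CPM in pho1-7hpr1-5, against 33.6 and 31.7 CPM in pho1-7tex1-4, and was 1.52-fold higher (log2 change 0.60, SE 0.0878, adjusted p = 0.00276). DGD1 was 1.32-fold higher (log2 change 0.40, SE 0.0591, adjusted p = 0.00297), and both calls held without any 1 sample. PLDZ2 had 5.20 and 5.55 CPM in pho1-7hpr1-5, against 3.17 and 3.75 CPM in pho1-7tex1-4 (log2 change 0.63, SE 0.147, adjusted p = 0.0189). Its call was lost without pho1-7hpr1-5 replicate 1 (adjusted p = 0.0541), pho1-7hpr1-5 replicate 2 (0.0673) or pho1-7tex1-4 replicate 1 (0.107). SQD1 differed by 0.28 (log2 scale, adjusted p = 0.0200), lost without pho1-7hpr1-5 replicate 1 (adjusted p = 0.0713), pho1-7hpr1-5 replicate 2 (0.0675) or pho1-7tex1-4 replicate 2 (0.111). SQD2 differed by 0.26 (log2 scale, adjusted p = 0.0370), lost without any 1 of the 4 samples (adjusted p between 0.0942 and 0.143). MGD2 and MGD3 did not differ by the test, with 95% intervals of the log2 change from -0.21 to 0.53 and from -0.55 to 0.75.

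On plates the tex1-4 mutant, with an intact PHO1, was compared with Col-0. Of the 9 genes, MGD2 and NPC4 rose and MGD3 fell, and this share was close to the 25.2% of all 21772 tested genes that changed (11.6% rose and 13.6% fell). MGD3 had 1.48, 0.832 and 1.16 CPM in tex1-4, against 2.37, 2.40 and 2.47 CPM in Col-0, without overlap. It was 2.09-fold lower (log2 change -1.06, SE 0.213, adjusted p = 0.0137), and this held without any 1 of the 6 samples. MGD2 had 4.03, 5.25 and 4.49 CPM in tex1-4, against 3.39, 3.22 and 3.53 CPM in Col-0. It was 1.36-fold higher (log2 change 0.44, SE 0.128, adjusted p = 0.0437), and this call was lost without any 1 of the 6 samples (adjusted p between 0.0587 and 0.141) and with no filter on low counts (0.0537). The 2 genes for the same reaction thus lay on opposite sides of Col-0 in the same samples.

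NPC4 had 33.6, 32.6 and 32.6 CPM in tex1-4, against 20.3, 28.0 and 20.8 CPM in Col-0. It was 1.43-fold higher (log2 change 0.51, SE 0.124, adjusted p = 0.0240). The middle Col-0 sample, replicate 2, stood apart from the other 2 Col-0 samples over all genes. The NPC4 call held without this sample and was lost without any 1 of the other 5 (adjusted p between 0.0530 and 0.0858). DGD2 had 25.4, 21.8 and 23.8 CPM in tex1-4, against 25.9, 30.9 and 27.7 CPM in Col-0, and its log2 change of -0.25 (95% interval -0.46 to -0.04) did not pass (adjusted p = 0.0814). DGD1 had 22.3, 22.9 and 22.8 CPM in tex1-4, against 20.2, 21.8 and 19.7 CPM in Col-0, with an adjusted p of 0.151, or 0.0451 without Col-0 replicate 2. SQD1 had a 95% interval from -0.07 to 0.27, SQD2 from -0.21 to 0.10, PLDZ2 from -0.35 to 0.45 and GDPD1 from -0.42 to 0.11 (log2 scale), and their samples overlapped between the genotypes.

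**Figure D3:**
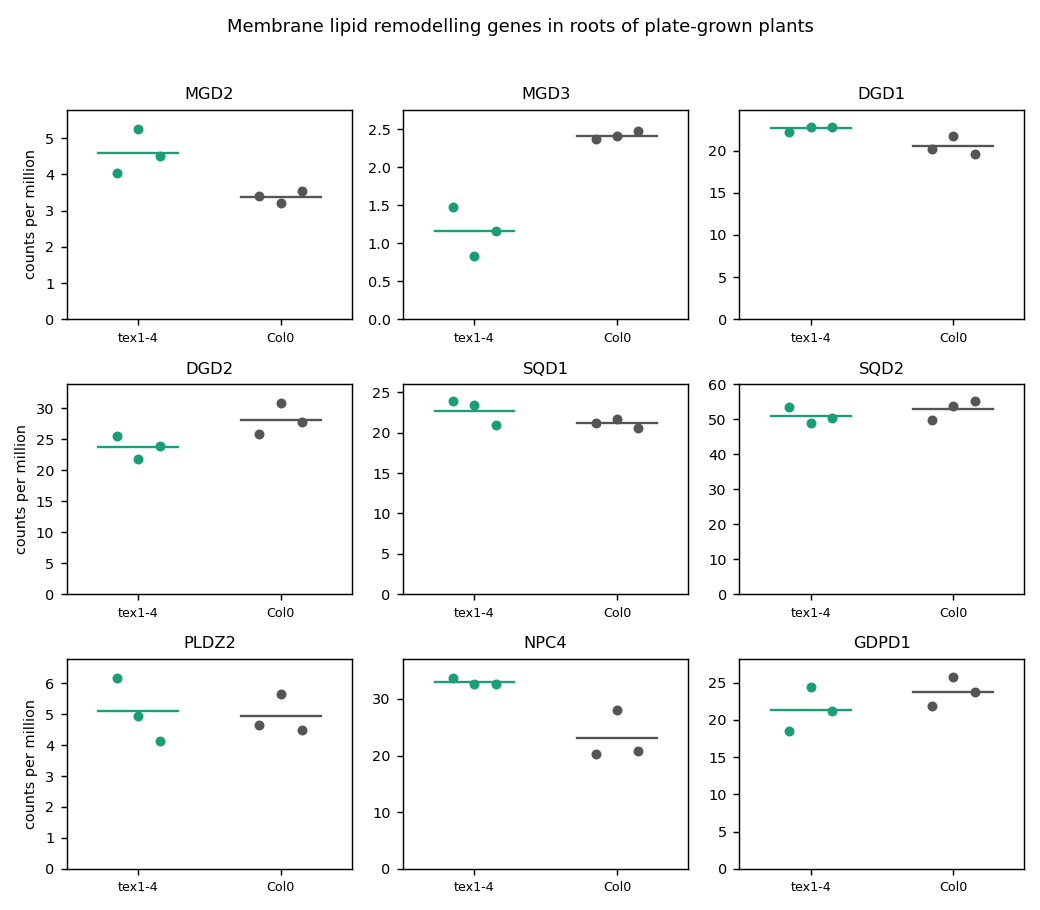
Levels of the 9 tested genes in roots of plate-grown plants, in CPM on linear axes from 0, for tex1-4 on the left and Col-0 on the right. Points are the 3 samples of a group and bars are their means. MGD3 is lower in the 3 tex1-4 samples (0.832 to 1.48) than in the 3 Col-0 samples (2.37 to 2.47).

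The change with tex1-4 was then compared between the experiments, as the change in pots (pho1-7tex1-4 over pho1-7) minus that on plates (tex1-4 over Col-0). The background, age, growth condition and read layout all differ between the experiments and cannot be told apart. The difference passed for MGD2, SQD1 and PLDZ2, all lower in pots, where 2.77% of the 22667 genes tested differed, 1.68% lower and 1.09% higher in pots. For SQD1 it was -0.76 (SE 0.0985, adjusted p = 0.00282), and it held without any 1 of the 10 samples. For PLDZ2 it was -1.17 (SE 0.249, adjusted p = 0.0306), lost without any 1 of 6 samples, namely Col-0 replicate 1 (adjusted p = 0.0590), Col-0 replicate 3 (0.0726) and tex1-4 replicate 2 (0.0609) of the plates and pho1-7 replicate 1 (0.156), pho1-7tex1-4 replicate 1 (0.142) and pho1-7tex1-4 replicate 2 (0.0673) of the pots. For MGD2 it was -1.19 (SE 0.204, adjusted p = 0.0112), lost without pho1-7 replicate 1 (adjusted p = 0.0633), pho1-7tex1-4 replicate 1 (0.0582) or pho1-7tex1-4 replicate 2 (0.0560).

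MGD3 was lower with tex1-4 in both experiments, and its difference of -1.05 (95% interval -1.84 to -0.25) did not pass (adjusted p = 0.174). The starting levels were unlike. In pots MGD3 fell from its raised level in pho1-7 to a level not called different from Col-0. On plates it fell below Col-0. GDPD1 differed by -0.65 (SE 0.159) with an adjusted p of 0.0537, which was 0.00936 in DESeq2 and 0.0397 with library totals alone. It was 0.0220 without Col-0 replicate 2 of the plates, 0.0268 without tex1-4 replicate 1 of the plates and 0.0486 without pho1-7 replicate 2 of the pots. NPC4 differed by -0.55 (95% interval -0.98 to -0.13, adjusted p = 0.181), or by -0.72 without Col-0 replicate 2 of the plates (adjusted p = 0.00953).

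**Figure D4:**
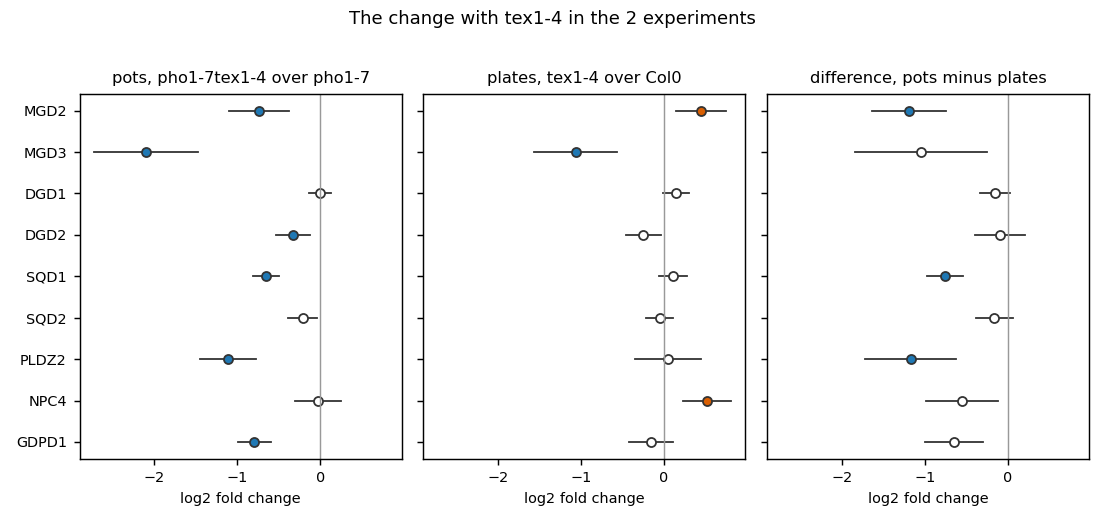
Log2 fold changes of the 9 tested genes with tex1-4 in pots (pho1-7tex1-4 over pho1-7), on plates (tex1-4 over Col-0), and the difference of both. Circles are the estimates, bars their 95% intervals, filled circles the genes with an adjusted p under 0.05. MGD3 is lower in both experiments (-2.09 and -1.06), and MGD2 is lower in pots (-0.74) and higher on plates (0.44).

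Beside the 10 genes, 20 further genes of lipid remodelling were examined, among them other phospholipases, phosphodiesterases, phosphatases and lipid transporters, and 19 of them had enough reads in pots. Of the 19, 5 rose and none fell in pho1-7 against Col-0, where 7.11% of all tested genes changed, and their median stood at 0.01 on the log2 scale. The 5 were MGD1, GDPD3, UGP3, PECP1 and PS2. PECP1 and PS2 encode phosphatases of phosphoethanolamine and phosphocholine, the head groups released from phospholipids. PS2 had 35.5 and 25.7 CPM in pho1-7, against 7.23 and 8.03 CPM in Col-0 (log2 change 2.00, SE 0.221, adjusted p = 0.00317). PECP1 had 2.26 and 1.42 CPM in pho1-7, against 0.156 and 0.154 CPM in Col-0 (log2 change 3.55, SE 0.425, adjusted p = 0.00420). The Col-0 values rested on 11 and 10 reads, so the size of this change is uncertain. UGP3, which makes UDP-glucose for sulfolipids in plastids, had 23.5 and 23.9 CPM in pho1-7, against 13.5 and 12.3 CPM in Col-0 (log2 change 0.88, SE 0.0722, adjusted p = 0.00126). GDPD3, a relative of GDPD1, rested on 17 and 27 reads in pho1-7, against 4 and 1 reads in Col-0, and no fold change is given. MGD1, which encodes the major plastid synthase of monogalactosyldiacylglycerol, rose by 0.29 on the log2 scale (SE 0.0605, adjusted p = 0.0301).

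In pho1-7tex1-4 against pho1-7, 7 of the 19 fell and 2 rose, where 35.7% of all tested genes changed. In pho1-7hpr1-5 against pho1-7, 5 fell and 2 rose, where 31.7% of all genes changed. PS2 had 12.9 and 13.2 CPM in pho1-7tex1-4 and 6.43 and 10.30 CPM in pho1-7hpr1-5, against 35.5 and 25.7 CPM in pho1-7. It fell in both (log2 changes -1.23 and -1.87, SE 0.213 and 0.220, adjusted p = 0.00454 and 0.000828). PECP1 had 0.0709 and 0.162 CPM in pho1-7tex1-4 and 0.732 and 1.22 CPM in pho1-7hpr1-5, against 2.26 and 1.42 CPM in pho1-7. It fell in pho1-7tex1-4 (log2 change -3.84, SE 0.430, adjusted p = 0.000909) and was not called in pho1-7hpr1-5. It was higher in pho1-7hpr1-5 than in pho1-7tex1-4 (log2 change 2.93, SE 0.448, adjusted p = 0.00346). PECP1 rested on 4 and 16 reads in pho1-7tex1-4 and 11 and 10 reads in Col-0, so the sizes of its changes are uncertain. GDPD2 had 154 and 120.1 CPM in pho1-7tex1-4, 342 and 358 CPM in pho1-7hpr1-5 and 127 and 130.3 CPM in pho1-7, against 139.6 and 123 CPM in Col-0. This phosphodiesterase gene was 2.72-fold higher in pho1-7hpr1-5 than in pho1-7 (log2 change 1.44, SE 0.117, adjusted p = 0.000202). GDPD3 fell by the test in both lines, with 8 and 15 reads in pho1-7tex1-4 and 6 and 7 reads in pho1-7hpr1-5. In pho1-7tex1-4 against Col-0, 5 rose and 6 fell, where 46.1% of all genes changed. In pho1-7hpr1-5 against Col-0, 3 rose and 5 fell, where 41.9% of all genes changed, a share close to that of the list. PECP1 was among those that rose (log2 change 2.64, SE 0.444, adjusted p = 0.00263). On plates PECP1 had too few reads to be tested and GDPD6, not tested in pots, had enough, so that 19 of the 20 were again tested. In tex1-4, 1 of these rose and 2 fell, where 25.2% of all tested genes changed. The gene that rose was PS2, with 12.5, 17.7 and 8.53 CPM in tex1-4, against 7.02, 5.37 and 7.18 CPM in Col-0 (log2 change 0.98, SE 0.258, adjusted p = 0.0309).

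**Figure D5:**
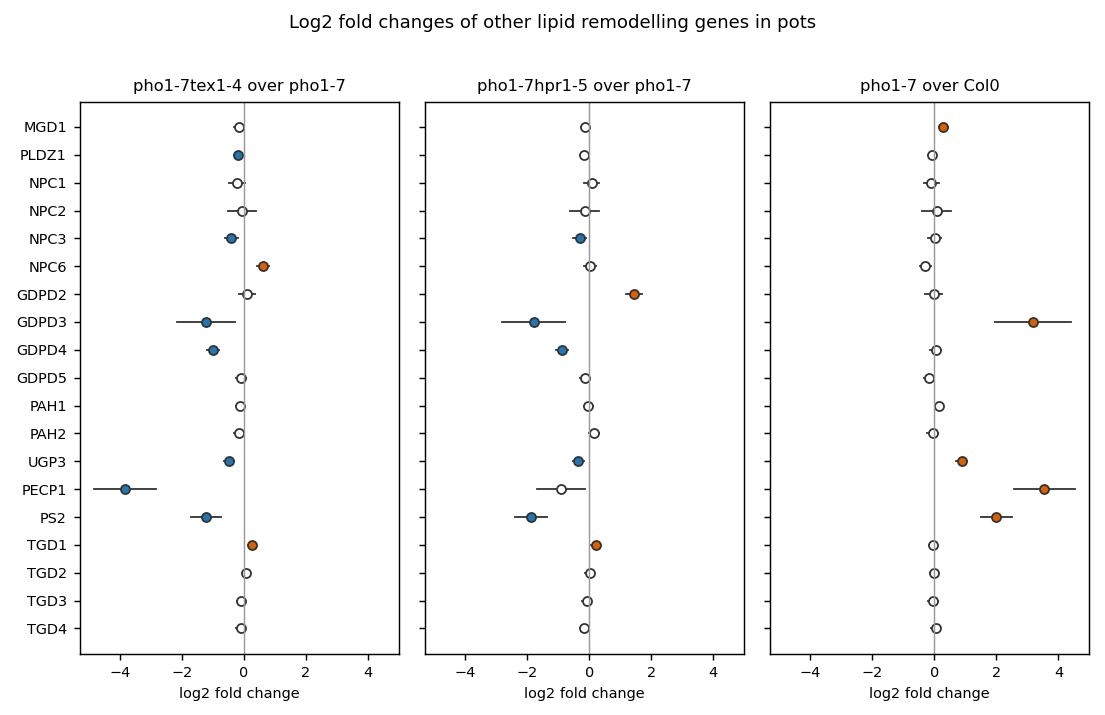
Log2 fold changes of 19 other lipid remodelling genes in pots, for pho1-7tex1-4 over pho1-7, pho1-7hpr1-5 over pho1-7 and pho1-7 over Col-0. Circles are the estimates, bars their 95% intervals, filled circles the genes with an adjusted p under 0.05. PS2 lies at -1.23, -1.87 and 2.00 and GDPD2 at 1.44 in the middle panel, and GDPD3 rests on 1 to 27 reads per sample.

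Of 13 genes of phospholipid synthesis, 1 rose and none fell in pho1-7 against Col-0, a share near the 7.11% of all tested genes that changed, and their median stood at 0.01 on the log2 scale. The gene was NMT1 (AT3G18000), which methylates phosphoethanolamine on the way to phosphocholine. NMT1 had 211 and 206 CPM in pho1-7, against 104 and 108 CPM in Col-0 (log2 change 0.98, SE 0.0649, adjusted p = 0.000518). In pho1-7tex1-4 it had 178 and 194 CPM and was not called against pho1-7. There PGP1 alone of the 13 rose and none fell, where 35.7% of all tested genes changed. In pho1-7hpr1-5 it had 137 and 130.2 CPM and fell against pho1-7 (log2 change -0.64, SE 0.0645, adjusted p = 0.000422), as did AAPT2. Of all tested genes, 31.7% changed in that comparison. Against Col-0, 4 of the 13 rose and 1 fell in pho1-7tex1-4, where 46.1% of all genes changed, and 2 rose and 3 fell in pho1-7hpr1-5, where 41.9% did. In tex1-4 on plates, 0 of the 13 were called, where 25.2% of all tested genes changed.

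The study followed Pi status with MGD3 and 5 further genes, IPS1, SPX3, PHT1;4, ACP5 and PHO1;H1. It measured them by RT-PCR in shoots of Col-0, pho1-7 and a double mutant with another tex1 allele. The study reports expression in that double mutant close to Col-0 supplied with Pi. It also measured lipids of shoots, with fewer phospholipids and more galactolipids in pho1-7, and the double mutant similar to Col-0. The values here are of RNA in roots. The study chose the 5 further genes to follow the Pi response of pho1-7, so they are not independent evidence. The same holds for MGD3. All 5 further genes rose when pho1-7 was set against Col-0, by 4.08, 2.15, 0.66, 0.83 and 1.09 on the log2 scale (adjusted p = 0.000169, 0.00265, 0.00767, 0.0135 and 0.00265). Of all tested genes, 2.40% rose. IPS1, a non-coding RNA that binds miR399, had 1.01 and 0.678 CPM in pho1-7tex1-4, 1.39 and 1.57 CPM in pho1-7hpr1-5 and 15.9 and 12.8 CPM in pho1-7, against 0.952 and 0.737 CPM in Col-0. It was highest in pho1-7, as MGD3 was, but unlike MGD3 it was also called higher in pho1-7hpr1-5 than in Col-0 (log2 change 0.80, SE 0.233, adjusted p = 0.02585). All 5 further genes rose in pho1-7hpr1-5 against Col-0, where 20.7% of all tested genes rose. In pho1-7tex1-4 against Col-0, 1 rose and 1 fell, where 46.1% of all tested genes changed. PHT1;4, a Pi uptake transporter, had 43.3 and 48.0 CPM in pho1-7tex1-4, 54.5 and 46.8 CPM in pho1-7hpr1-5 and 44.7 and 40.3 CPM in pho1-7, against 27.5 and 26.3 CPM in Col-0, and was higher than Col-0 in all 3 mutants.

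MGD3 had the widest range of group means of the 9 genes in pots, 2.04 on the log2 scale, followed by PLDZ2 (1.11), GDPD1 (0.79), MGD2 (0.72) and SQD1 (0.66). The 5 genes whose log2 CPM followed that of MGD3 most closely over the 8 pot samples were AT1G03420 (r = 0.990), AT1G23110 (0.980), AT4G21260 (0.975), AT5G52310 (0.974) and AT5G05600 (0.968). These values describe 8 samples of 4 groups that share a pho1-7 difference. AT1G23110 had 0.868 and 0.951 CPM in pho1-7tex1-4, 1.03 and 0.824 CPM in pho1-7hpr1-5 and 5.90 and 3.97 CPM in pho1-7, against 1.21 and 1.11 CPM in Col-0. AT5G52310, the RD29A gene known for its response to drought and cold, had 8.96 and 11.0 CPM in pho1-7tex1-4, 9.92 and 10.5 CPM in pho1-7hpr1-5 and 21.8 and 15.4 CPM in pho1-7, against 10.13 and 11.7 CPM in Col-0. Among the 9 genes, r with MGD3 was 0.968 for MGD2, 0.879 for SQD1, 0.855 for PLDZ2 and 0.728 for GDPD1, and between -0.14 and 0.49 for DGD1, DGD2, SQD2 and NPC4.

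The study called extensions of transcripts past gene ends at an adjusted p under 0.1 and a change over 2-fold. Applied here to genes, for which the study gives no threshold, these limits pick larger changes. They left MGD3 alone of the 9 genes in pho1-7 against Col-0, where 1.87% of all tested genes passed. MGD3 and PLDZ2 remained in pho1-7tex1-4 against pho1-7 (5.02% of all genes) and MGD3 in pho1-7hpr1-5 against pho1-7 (5.19%). None of the 9 passed for pho1-7tex1-4 against Col-0 (5.93%), pho1-7hpr1-5 against Col-0 (6.93%) or pho1-7hpr1-5 against pho1-7tex1-4 (4.09%). On plates MGD3 passed (5.42% of all genes), and for the difference between experiments MGD2 and PLDZ2 did (1.81%).

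The study also counted reads in 1462 extensions past annotated gene ends. None of the 10 genes has an extension row, so no ratio of extension to gene body was computed for them.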

How the data were processed

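RNA of roots was extracted with an RNeasy kit, polyadenylated RNA was selected and strand-marking libraries were made. Per the study's methods and the labels, the authors aligned the reads with HISAT2 to TAIR10 and deposited read counts per gene from HTSeq, without normalization. Rows that name no gene held 17.1 to 19.6% of the reads and were left out, and 0.836 to 1.05% were ambiguous.

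Samples were grouped by their labels. Counts were tested with edgeR 4.0.16 in R 4.3.3 (filterByExpr, TMM, quasi-likelihood test, Benjamini-Hochberg), with the 8 pot samples in 1 fit, the 6 plate samples in another and all 14 for the difference between experiments. DESeq2 1.42.0 was the other tool. CPM used TMM-scaled library sizes. Exon lengths and sequences came from RefSeq TAIR10.1, not the annotation the authors counted on, so RPKM values are approximate. Standard errors were derived from the log2 change and F statistic. On simulated data the pot fit recovered 58.5%, 80.5% and 96% of 200 genes changed 1.5-, 2- and 4-fold, and the plate fit 47%, 78.5% and 95.5%. False calls were 8 of 125, 15 of 176 and 14 of 206 calls in pots, and 5 of 99, 9 of 166 and 15 of 206 on plates. The 200 changed genes are fewer than were called in any comparison of the data, so recovery there may differ.

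The 10 genes and the lists were chosen with earlier results of these data known. Named beyond the 10 were genes of the 2 further lipid lists with an adjusted p under 0.05 and a change over 2-fold (up to 4 per list and comparison), and the 5 genes nearest in pattern to the widest-ranging of the 10. MGD1, UGP3, NMT1, PGP1, AAPT2 and PS2 on plates were named after their values were seen, as members of small counts. Alternatives were other scalings, no filter, only the groups compared, a replicate block, leaving out each sample, and the thresholds the study set for extensions. They were run for the 10 genes and for counts over all genes. Calls of single genes outside the 10 were not put through them.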

Additional observations from a re-analysis of the deposited data

Results flagged for a closer look

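The change with tex1-4 differed between the experiments by the test of the difference itself for 3 genes. The difference, pots minus plates on the log2 scale, was -1.19 for MGD2, -0.76 for SQD1 and -1.17 for PLDZ2 (edgeR's quasi-likelihood test, adjusted p = 0.0112, 0.00282 and 0.0306). Of these 3, the difference of SQD1 alone held without any 1 sample. For MGD2 the sign also differed, with a log2 change of -0.74 in pots and 0.44 on plates. The MGD2 call on plates was lost without any 1 of the 6 plate samples. Background, age, growth condition and read layout changed together between the experiments, and their parts cannot be told apart.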

How the results depend on the processing

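Under an adjusted p of 0.1 and a change over 2-fold, the thresholds that the study set for transcript extensions and that are applied here to genes, all-gene counts were 411 for pho1-7 against Col-0, 1102 and 1140 for pho1-7tex1-4 and pho1-7hpr1-5 against pho1-7, 1304 and 1522 for the same lines against Col-0, 898 for pho1-7hpr1-5 against pho1-7tex1-4, 1179 on plates and 411 for the difference between experiments. Of the 9 genes, these thresholds left 1, 2 and 1 in the first 3 comparisons, 0, 0 and 0 in the next 3 and 1 on plates. Samples were not paired by replicate number in the main fits. Correlations of same-numbered deviations lay between -0.191 and 0.233. In pots, with 2 samples per group, replicates 1 and 2 give the same correlation, so these values cannot settle whether numbers pair samples. With a replicate block the plates gave 2744 genes in all and 1 of the 9, and calls near the threshold were lost (PLDZ2 in pho1-7hpr1-5 against pho1-7 at adjusted p = 0.0523, NPC4 in pho1-7hpr1-5 against Col-0 at 0.0579, SQD2 in pho1-7hpr1-5 against pho1-7tex1-4 at 0.0594, and NPC4 and MGD2 on plates at 0.0504 and 0.102). Crossing the pho1-7 numbers against Col-0, chosen after seeing the data, left 4 of the 9 genes, with MGD2 lost (0.0673). DESeq2 gave 1284 genes for the difference between experiments, and the fit of the compared groups alone left 3 of the 9 genes in pho1-7hpr1-5 against pho1-7. The log2 change of MGD3 in pho1-7hpr1-5 against Col-0 was 0.016 without the filter, against -0.02 with it, and was called in neither. The causes were not tested.

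Leaving out each replicate in turn gave, over all genes and over the 9, 339 to 1264 and 2 to 5 calls for pho1-7 against Col-0, 4054 to 7282 and 4 to 7 for pho1-7tex1-4 against pho1-7, 4632 to 5433 and 3 to 6 for pho1-7hpr1-5 against pho1-7, 4922 to 7135 and 0 to 1 for pho1-7tex1-4 against Col-0, 5017 to 7873 and 3 to 4 for pho1-7hpr1-5 against Col-0, 2319 to 3956 and 2 to 3 for pho1-7hpr1-5 against pho1-7tex1-4, 2155 to 7194 and 1 to 3 on plates, and 178 to 1372 and 1 to 5 for the difference between experiments. Log2 changes that changed sign in these fits were uncalled values near 0. They ranged from -0.081 to 0.020 for DGD2 in pho1-7 against Col-0. In pho1-7tex1-4 against Col-0 they ranged from -0.32 to 0.079 for MGD3, -0.039 to 0.069 for SQD1, -0.036 to 0.13 for SQD2 and -0.070 to 0.013 for GDPD1, and against pho1-7 from -0.030 to 0.022 for DGD1 and -0.18 to 0.13 for NPC4. In pho1-7hpr1-5 against Col-0 they ranged from -0.057 to 0.25 for MGD2 and -0.19 to 0.18 for MGD3, against pho1-7 from -0.21 to 0.018 for DGD2, -0.031 to 0.15 for SQD2 and -0.17 to 0.14 for NPC4, and against pho1-7tex1-4 from -0.0043 to 0.30 for MGD2, -0.043 to 0.23 for MGD3 and -0.074 to 0.11 for NPC4. On plates PLDZ2 ranged from -0.12 to 0.17. Alternatives on extension ratios were not run, since none of the 10 genes has an extension row. With 2 samples per group in pots, 1 left-out sample leaves a lone one that is assumed to vary like the other groups.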
